A study of Homo sapiens with 4 samples.

Results

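The genes described here serve protein folding in the endoplasmic reticulum (ER), the disposal of proteins that fail to fold there, and the unfolded protein response that adjusts both. Members are the rows of the deposited count table whose Ensembl gene ID maps to 1 of 32 listed symbols. All 32 were found among the 20263 gene IDs of the table, and all 32 passed the filter on low counts. RNA came from MDA-MB-231, a human line of triple-negative breast cancer cells that is widely used in culture. RB-1, a compound known here by its code name and called a derivative of ribociclib, an inhibitor of cyclin-dependent kinases, in the series title, was given for 24 h, and the comparison cells received DMSO. There were 2 RB-1 and 2 DMSO libraries, and all cells were grown in DMEM with fetal bovine serum and antibiotics. The labels give no dose and do not say whether replicates were separate cultures. The p-values therefore reflect the spread between these libraries, and that spread may be technical.

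Secretory and membrane proteins enter the ER through the SEC61 channel, receive N-linked glycans and are folded by chaperones, by the lectins calnexin and calreticulin, and by disulfide isomerases of the PDI family, which ERO1 oxidases recharge. Chains that do not fold are recognised by EDEM proteins and OS9, passed through a membrane complex built around SEL1L, the ubiquitin ligase SYVN1 and derlins, and degraded by the proteasome. Unfolded protein is sensed by IRE1 (encoded by ERN1), ATF6 and PERK. IRE1 splices XBP1 mRNA into the form that encodes an active transcription factor, ATF6 is cut to release a transcription factor, and PERK phosphorylates eIF2α and thereby favours translation of ATF4. The count table holds 1 value per gene, so XBP1 splicing, ATF6 cleavage and eIF2α phosphorylation were not measured.

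Library totals ran from 34122874 to 37754168 counts. Levels are given as CPM, counts scaled to a common library size, after TMM normalisation, which assumes that most genes do not change. A gene passed, and is said to have risen or fallen, where its Benjamini-Hochberg adjusted p from the quasi-likelihood test of edgeR was below 0.05 over 13612 genes. Of all genes tested 1737 (12.8%) were higher and 2189 (16.1%) lower in RB-1, 28.8% in either direction. With upper-quartile factors the split was 2171 higher and 1830 lower, and with library totals 2059 higher and 1400 lower. Transcripts that mark the line were present, with VIM at 3565 CPM or more in every library and CD44 at 416 CPM or more, while the hormone receptor genes ESR1 and PGR did not exceed 1.77 CPM and ERBB2 lay between 57.3 and 77.2 CPM. The T cell marker CD3E had 0 counts in every library. The most abundant gene, mitochondrial MT-CO1, took 1.21% and 1.76% of the counts in RB-1 replicates 1 and 2, against 2.24% and 5.02% in DMSO replicates 1 and 2. RB-1 replicates 1 and 2 differed along transcript length (Spearman correlation of their log2 ratio with length -0.46 over all genes tested), and this is given beside the members it touches.

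Promoter elements of the unfolded protein response are shown first, because several members carry them and their transcripts can be compared on that basis. ATF6 and XBP1 bind the ER stress element ERSE (CCAAT and CCACG with 9 bases of any kind between them), the shorter ERSE-II (ATTGG and CCACG with 1 base between them) and the unfolded protein response element UPRE (TGACGTGG). These letters were searched on both strands of the 250 bases before each RefSeq gene start (GRCh38.p14). Entries were found for 29 of the 32 members, without DERL1, DERL3 and PDIA3. ERSE occurred in 7 members, against 25 of all 27305 genes searched (0.0916%). ERSE-II occurred in 3 members, against 18 genes in all (0.0659%), and UPRE in 2 members, against 213 genes in all (0.780%). A UPRE and an ERSE-II can share the letters CGTGG, and do so in HYOU1. Many members are textbook targets of these factors, so the shares are given as a description only. The 7 ERSE matches, written 5′ to 3′ on the strand that carries the element, with the CCAAT and CCACG ends in capitals, are:
XBP1: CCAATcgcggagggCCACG
CALR: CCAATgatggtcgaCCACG
CANX: CCAATcttcacactCCACG
CRELD2: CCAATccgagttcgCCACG
ERO1B: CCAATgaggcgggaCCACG
PDIA6: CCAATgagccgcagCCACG
SERP1: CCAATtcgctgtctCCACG
They end at 33 bases before the start in XBP1 (chr22:28800603-28800621) and at 224 bases before it in ERO1B (chr1:236282183-236282201), with the others in between. The ERSE-II matches, with the variable base in lower case, are:
HERPUD1: ATTGGgCCACG
HYOU1: ATTGGaCCACG
SDF2L1: ATTGGtCCACG

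Among the called members, ERO1B and HYOU1 hold such a match, and their promoters are printed in full in the direction of transcription, both from the minus strand. ERO1B (chr1:236281959-236282208) rose and has 1 ERSE, here read on the opposite strand, in capitals:
ERO1B: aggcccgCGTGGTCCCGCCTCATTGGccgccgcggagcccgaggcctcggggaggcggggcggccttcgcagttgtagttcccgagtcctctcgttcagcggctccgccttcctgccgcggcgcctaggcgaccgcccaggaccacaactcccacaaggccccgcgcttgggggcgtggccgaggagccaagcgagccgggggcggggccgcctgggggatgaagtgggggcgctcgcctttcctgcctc
HYOU1 (chr11:119057206-119057455) fell and has 2 ERSE-II matches on the opposite strand, at 174 and 68 bases before the start. Its UPRE, at 180 bases before the start, overlaps the first of these, and the overlapping letters are in capitals as 1 run:
HYOU1: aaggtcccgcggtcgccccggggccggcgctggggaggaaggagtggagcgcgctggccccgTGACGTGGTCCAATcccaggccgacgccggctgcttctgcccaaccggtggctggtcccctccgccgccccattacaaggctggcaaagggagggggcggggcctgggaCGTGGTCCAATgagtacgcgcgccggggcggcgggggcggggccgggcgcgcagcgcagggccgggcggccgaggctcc
UPRE was also found in TXNDC5 (chr6:7910162-7910169).

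After RB-1, transcripts of the ER stress sensor gene ERN1, the channel subunit gene SEC61B, the oxidase gene ERO1B and the degradation genes EDEM1 and DERL2 rose, each by 2.08-fold to 2.54-fold. Transcripts of the glycoprotein folding sensor gene UGGT1, the chaperone gene HYOU1 and the degradation adaptor gene SEL1L fell, by 1.66-fold to 2.03-fold. The other 24 members did not pass, among them the abundant folding genes CALR, CANX and all 6 PDI family genes. The share of members that were higher, 15.6%, stood beside 12.8% of all genes tested, and the share that were lower, 9.38%, beside 16.1%. The median log2 fold change was 0.11 over the members and 0.012 over all genes tested. The counts moved with scaling, to 8 higher and 1 lower with upper-quartile factors and 8 higher and 0 lower with library totals. They also moved when single libraries were left out, as did the counts over all genes tested, and such fits leave 1 library in a group. The members' median log2 fold change was then 0.08 without DMSO replicate 1 and 0.24 without DMSO replicate 2. It was 0.21 without RB-1 replicate 1 and 0.11 without RB-1 replicate 2. Each group is bulk RNA, in which fewer cells of a type and less RNA per cell cannot be told apart.

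**Figure D1:**
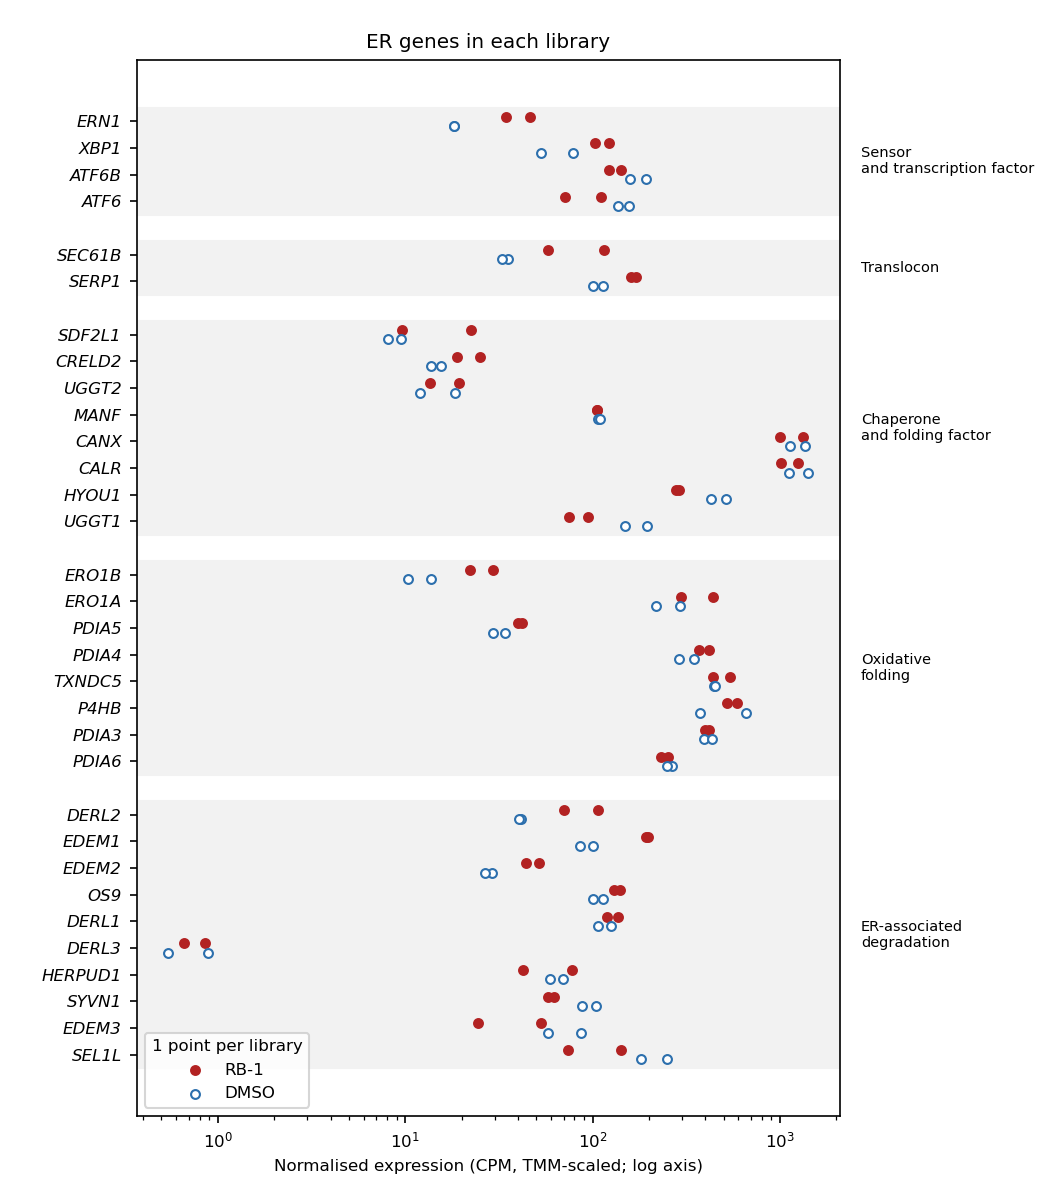
Normalised expression (CPM on a log axis) of the 32 ER genes in each library, with 1 point per library, RB-1 filled and DMSO open, grouped by role. The RB-1 points of ERN1, SEC61B, ERO1B, EDEM1 and DERL2 lie right of the DMSO points, those of UGGT1, HYOU1 and SEL1L lie left, and those of CALR, CANX and PDIA3 overlap.

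After TMM scaling the 32 members summed to 6721 and 6946 CPM in RB-1, against 6745 and 7112 CPM in DMSO. These and the following sums depend on the TMM factors (0.868 to 1.10). They are not shares of the deposited counts, and sums under other scalings are not given. Within that sum the translocon members stood at 286 and 218 CPM in RB-1 and 148 and 133 CPM in DMSO. Chaperones and folding factors summed to 2767 and 2875 CPM in RB-1, below 3240 and 3353 CPM in DMSO. Most of these sums is CALR and CANX, each of which overlapped between groups and did not pass. A difference between the sums was not tested. Oxidative folding genes summed to 2486 and 2560 CPM in RB-1, against 2084 and 2422 CPM in DMSO. The sums of the sensors (351 and 402 CPM in RB-1, 411 and 400 CPM in DMSO) and of the degradation genes (831 and 890 CPM in RB-1, 861 and 805 CPM in DMSO) overlapped between groups.

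**Figure D2:**
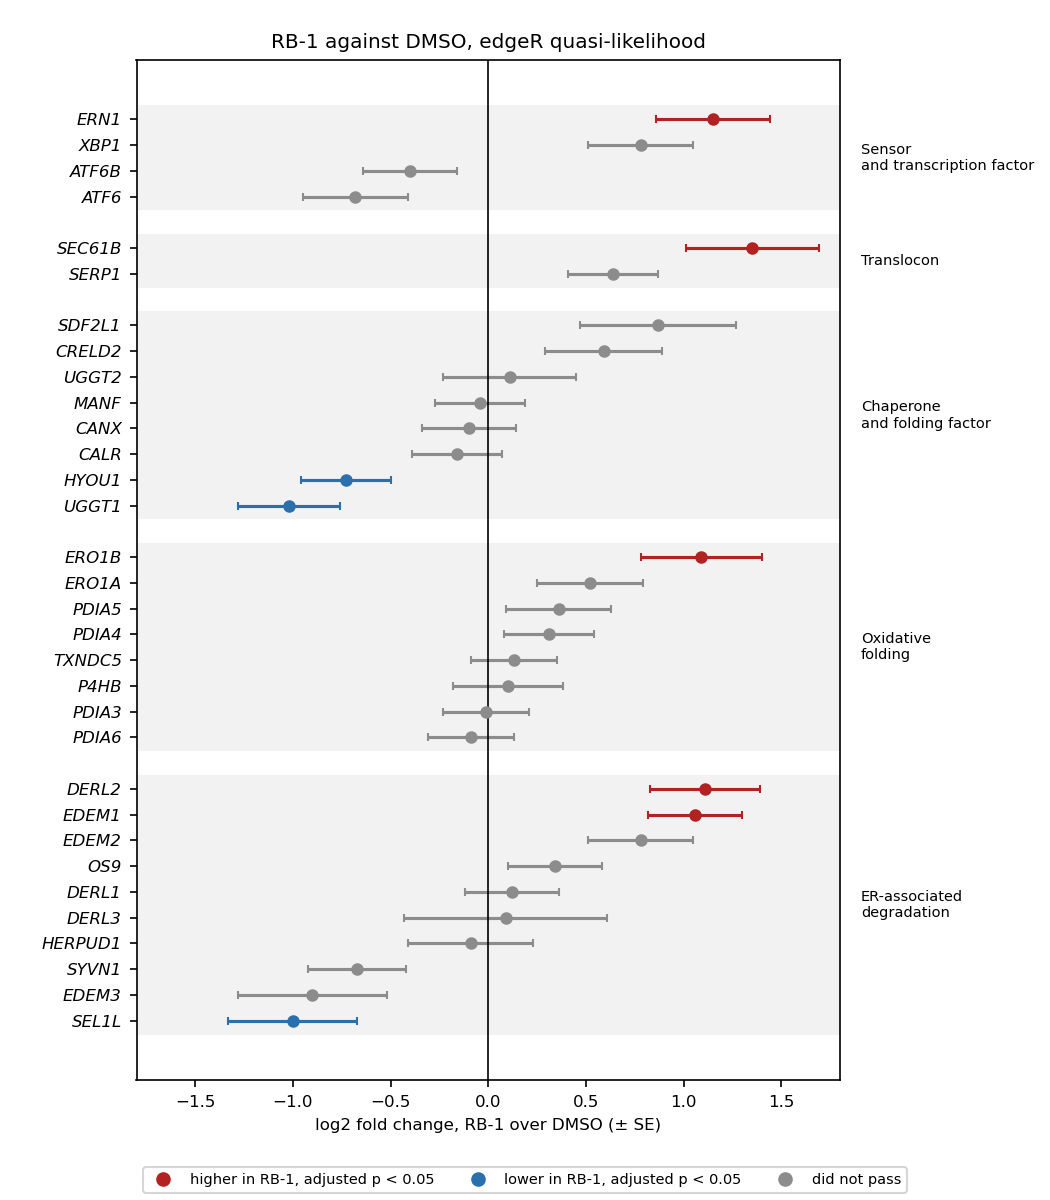
Log2 fold change of each of the 32 ER genes, RB-1 over DMSO, with its standard error, from edgeR's quasi-likelihood test on 2 libraries per group. The 5 red points, from 1.06 to 1.35, and the 3 blue points, from -1.02 to -0.73, passed an adjusted p under 0.05, and the 24 grey points did not.

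The sensors and their transcription factors did not move as a group. ERN1 (ENSG00000178607), which encodes IRE1α, had 34.5 and 46.6 CPM in RB-1 replicates 1 and 2, against 18.2 and 18.3 CPM in DMSO replicates 1 and 2. Both RB-1 libraries lay well above the closely matched DMSO libraries, and the gene rose (log2 fold change 1.15 ± 0.29 SE, adjusted p = 0.0155). XBP1, the mRNA that IRE1 splices and itself the carrier of an ERSE, had 122 and 103 CPM in RB-1, against 78.2 and 52.8 CPM in DMSO. Its groups were apart, but the difference of 0.78 ± 0.27 did not pass (adjusted p = 0.0548). ATF6, the ER-anchored sensor, had 71.4 and 111 CPM in RB-1, against 156 and 137 CPM in DMSO, and its log2 difference of -0.68 ± 0.27 did not pass either (adjusted p = 0.0846). Its paralogue ATF6B had 123 and 142 CPM in RB-1, against 159 and 192 CPM in DMSO (-0.40 ± 0.24, adjusted p = 0.223). Both ATF6 genes were thus lower, and ERN1 and XBP1 higher, in both RB-1 libraries, while ERN1 alone of the 4 passed. ERN1 no longer passed with DMSO replicate 1 left out (1.15, adjusted p = 0.102) or DMSO replicate 2 left out (1.18, adjusted p = 0.107).

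The translocon genes were both higher in both RB-1 libraries, and SEC61B passed. SEC61B (ENSG00000106803), the β subunit of the protein channel, had 115 and 57.9 CPM in RB-1 replicates 1 and 2, against 35.2 and 32.7 CPM in DMSO. Both RB-1 libraries were above DMSO but RB-1 replicate 1 was almost 1 log2 unit above replicate 2 (log2 ratio 0.99), and the group difference was 1.35 ± 0.34 (adjusted p = 0.0151). At 587 bases it has the shortest transcript of the members. With RB-1 replicate 1 left out the difference was 0.77 (adjusted p = 0.0887), and with an offset for transcript length it was 0.49 (adjusted p = 0.153). SEC61B also missed the threshold when DMSO replicate 1 (1.40, adjusted p = 0.0516) or DMSO replicate 2 (1.31, adjusted p = 0.0754) was left out. SERP1, which stabilises membrane proteins at the channel during stress, had 171 and 160 CPM in RB-1, against 113 and 100 CPM in DMSO, and did not pass (0.64 ± 0.23, adjusted p = 0.0631).

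Chaperones and folding factors gave 2 falls and no rise among 8. The share lower, 25%, stood beside 16.1% of all genes tested, of which 12.8% were higher. UGGT1 (ENSG00000136731), which re-glucosylates glycoproteins that are not yet folded so that they bind calnexin again, had 74.5 and 94.9 CPM in RB-1, against 196 and 148 CPM in DMSO. The groups were apart and the gene fell (-1.02 ± 0.26, adjusted p = 0.0157). Its transcript of 10650 bases is the longest of the members, and with the length offset the value was -0.27 (adjusted p = 0.396). UGGT1 also missed the threshold with DMSO replicate 1 left out (-0.81, adjusted p = 0.127), with RB-1 replicate 1 left out (-0.85, adjusted p = 0.0904) and with library totals as the scaling (-0.84, adjusted p = 0.0612). Its paralogue UGGT2 had 13.5 and 19.4 CPM in RB-1, against 18.5 and 12 CPM in DMSO, with overlapping groups (0.11 ± 0.34, adjusted p = 0.825).

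HYOU1 (ENSG00000149428), an HSP70-like chaperone and nucleotide exchange factor of the ER, had 278 and 290 CPM in RB-1, against 426 and 516 CPM in DMSO. All RB-1 values were below all DMSO values, and the gene fell (-0.73 ± 0.23, adjusted p = 0.0352). With its groups apart, the direction was largely fixed in advance, and it was the same in 15 of 15 alternatives (-0.86 to -0.52). The call was lost in 7 of them, including each omission of 1 library. The value was -0.86 and -0.56 with DMSO replicate 1 or 2 left out, and -0.70 and -0.76 with RB-1 replicate 1 or 2 left out. Its 2 ERSE-II matches and its UPRE make it the member with the most of these elements.

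The lectin chaperones were the most abundant members and did not pass. CALR, calreticulin, had 1250 and 1007 CPM in RB-1, against 1116 and 1411 CPM in DMSO (log2 difference -0.16 ± 0.23, 95% interval -0.68 to 0.36, adjusted p = 0.630). CANX, the membrane-bound calnexin, had 997 and 1331 CPM in RB-1, against 1354 and 1132 CPM in DMSO (-0.10 ± 0.24, 95% interval -0.62 to 0.43, adjusted p = 0.789). In both genes the libraries of the groups overlapped. The intervals, whose width also draws on the variance of other genes, leave out a change of 2-fold in either direction. MANF, a secreted stress-induced factor, stood at 106 and 105 CPM in RB-1, against 107 and 110 CPM in DMSO (-0.04 ± 0.23, adjusted p = 0.920). SDF2L1, a partner of ER chaperones, had 22.4 and 9.61 CPM in RB-1, against 9.46 and 8.09 CPM in DMSO, and did not pass (0.87 ± 0.40, adjusted p = 0.130). Its RB-1 replicates differed more than its groups did on average (log2 ratio 1.22), and it passed with RB-1 replicate 2 left out (1.36, adjusted p = 0.0188). CRELD2, a secreted stress-induced protein, had 25 and 19 CPM in RB-1, against 13.7 and 15.5 CPM in DMSO (0.59 ± 0.30, adjusted p = 0.161).

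Oxidative folding genes gave 1 rise and no fall among 8. The share higher, 12.5%, was close to the 12.8% of all genes tested, and 16.1% of all genes tested were lower. ERO1B (ENSG00000086619), the less abundant of the 2 oxidases that regenerate PDI, had 22.2 and 29.4 CPM in RB-1, against 13.8 and 10.4 CPM in DMSO. The groups did not overlap and the gene rose (1.09 ± 0.31, adjusted p = 0.0252). ERO1B missed the threshold with DMSO replicate 1 (1.31, adjusted p = 0.0784), DMSO replicate 2 (0.92, adjusted p = 0.210) or RB-1 replicate 2 (0.87, adjusted p = 0.0782) left out. ERO1A, the broadly expressed oxidase, had 296 and 437 CPM in RB-1, against 219 and 293 CPM in DMSO. Its lower RB-1 library barely exceeded its higher DMSO library, and it did not pass (0.52 ± 0.27, adjusted p = 0.168), although it did with the length offset (0.78, adjusted p = 0.0316).

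The 6 PDI family genes lay between -0.09 and 0.36 on the log2 fold change scale, and none passed. P4HB, the founding disulfide isomerase, had 520 and 589 CPM in RB-1, against 374 and 657 CPM in DMSO, so that its DMSO libraries enclosed both RB-1 libraries (0.10 ± 0.28, adjusted p = 0.804). PDIA3, which works with the lectin chaperones, had 400 and 420 CPM in RB-1, against 392 and 436 CPM in DMSO (-0.01 ± 0.22, adjusted p = 0.973). PDIA4, at 417 and 371 CPM in RB-1 and 347 and 289 CPM in DMSO, and PDIA5, at 41.8 and 39.9 CPM in RB-1 and 29.4 and 34 CPM in DMSO, had their groups apart, with the largest value of the 6 in PDIA5 (0.36 ± 0.27, adjusted p = 0.333). PDIA6 had the lowest value (-0.09 ± 0.22). All 6 intervals lay within a 2-fold change. TXNDC5 is uncertain because 60.6% of its exon bases are shared with the read-through gene BLOC1S5-TXNDC5, and PDIA6 because 25.2% overlap ATP6V1C2 on the opposite strand.

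In ER-associated degradation, EDEM1 and DERL2 rose and SEL1L fell among 10 members. These shares, 20% higher and 10% lower, stood beside 12.8% and 16.1% of all genes tested. EDEM1 (ENSG00000134109), a mannosidase-like protein that marks glycoproteins for removal, had 198 and 192 CPM in RB-1, against 101 and 85.8 CPM in DMSO. The RB-1 libraries were nearly equal and about 1 log2 unit above DMSO (1.06 ± 0.24, adjusted p = 0.00924, the smallest of the members). It passed in 14 of 15 alternatives, the most of the called members, and missed with DMSO replicate 2 left out (0.96, adjusted p = 0.0814). EDEM2, which starts mannose trimming, had 51.6 and 43.9 CPM in RB-1, against 29.2 and 26.5 CPM in DMSO. Its groups were apart without passing (0.78 ± 0.27, adjusted p = 0.0550). EDEM3, a further family member, had 24.3 and 52.9 CPM in RB-1, against 86.2 and 57.5 CPM in DMSO, opposite in direction to its paralogues, and did not pass (-0.90 ± 0.38, adjusted p = 0.105). Its RB-1 libraries were 1.12 log2 units apart, with replicate 1 the lower.

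SEL1L (ENSG00000071537), the adaptor that joins substrate receptors to the ligase, had 73.5 and 142 CPM in RB-1, against 249 and 181 CPM in DMSO. The groups were apart, the RB-1 libraries differed by 0.95 on the log2 scale, and the gene fell (-1.0 ± 0.33, adjusted p = 0.0447). This was the called member nearest the threshold, and its call was lost in 7 of 15 alternatives, among them the omission of RB-1 replicate 1 (-0.59, adjusted p = 0.206), DMSO replicate 1 (-0.75, adjusted p = 0.197) or DMSO replicate 2 (-1.19, adjusted p = 0.0521) and the length offset (-0.46, adjusted p = 0.190). SYVN1, the ubiquitin ligase HRD1 that SEL1L stabilises, had 57.7 and 62.1 CPM in RB-1, against 87.4 and 104 CPM in DMSO. It was lower in both RB-1 libraries but did not pass (-0.67 ± 0.25, adjusted p = 0.0660). HERPUD1, a member of the same complex and carrier of an ERSE-II, had 42.6 and 78.0 CPM in RB-1, against 59.1 and 69.1 CPM in DMSO (-0.09 ± 0.32, adjusted p = 0.857). OS9, a lectin that delivers substrates, had 140 and 130 CPM in RB-1, against 100 and 113 CPM in DMSO (0.34 ± 0.24, adjusted p = 0.299).

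The derlins are membrane proteins of the channel through which substrates leave, and differences between them were not tested. DERL2 (ENSG00000072849) had 107 and 70.5 CPM in RB-1, against 41.7 and 40.5 CPM in DMSO, and rose (1.11 ± 0.28, adjusted p = 0.0163). Each RB-1 library was above both DMSO libraries. DERL2 missed the threshold with DMSO replicate 1 (1.13, adjusted p = 0.0780), DMSO replicate 2 (1.11, adjusted p = 0.0965) or RB-1 replicate 1 (0.78, adjusted p = 0.0816) left out. DERL1 had 136 and 119 CPM in RB-1, against 107 and 126 CPM in DMSO (0.12 ± 0.24, adjusted p = 0.726). DERL3 was barely detected, with 25 and 32 counts in RB-1, against 19 and 29 counts in DMSO, and 77.0% of its exon bases overlap SMARCB1 on the opposite strand, so reads of that neighbour may be among them. Among the 8 called members such overlap with any annotated gene did not exceed 9.66% of exon bases.

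Of the 24 members that did not pass, 9 had both RB-1 libraries above both DMSO libraries, 5 had both below, and 10 overlapped. Together with the 8 called members, 14 of 32 were apart upward and 8 of 32 downward, beside 35.3% and 34.3% of all genes tested (69.7% in either direction). For 14 of the 24 the 95% interval lay within a 2-fold change either way, and for the other 10 it reached past 2-fold. Without adjustment 14 of the 32 members had a p under 0.05. The share of all genes tested at that level was not counted. It is at least the 28.8% that passed with adjustment, so the 14 are not read as a trait of the members. Per kilobase of the longest annotated transcript, the order of levels was led in both groups by CALR (593 CPM per kilobase in RB-1, 664 in DMSO), CANX (273 in RB-1, 292 in DMSO), P4HB (213 in RB-1, 198 in DMSO) and TXNDC5 (165 in RB-1, 151 in DMSO), and DERL3 was last (0.244 in RB-1, 0.230 in DMSO). SEC61B had 147 CPM per kilobase in RB-1, rank 5 of the 32, and 57.8 in DMSO, rank 11. HYOU1 had 62.7 in RB-1, rank 11, and 104 in DMSO, rank 7.

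Of the 7 with an ERSE, ERO1B rose and none fell, beside 12.8% higher and 16.1% lower among all genes tested. A link between these elements and the changes was not tested. The log2 fold changes of the other 6, none of which passed, were 0.78 in XBP1, 0.64 in SERP1, 0.59 in CRELD2, -0.09 in PDIA6, -0.10 in CANX and -0.16 in CALR. Of the 3 with an ERSE-II, HYOU1 fell, while SDF2L1 (0.87) and HERPUD1 (-0.09) did not pass. EDEM1, ERN1, DERL2 and SEC61B, which rose, and SEL1L and UGGT1, which fell, had no match to ERSE, ERSE-II or UPRE in the window searched.

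Other genes of the same processes were counted in 8 lists of 121 genes chosen by function, of which 120 were tested. Of these 21 rose (17.5%) and 8 fell (6.67%), beside 12.8% and 16.1% of all genes tested, with a median log2 fold change of 0.22. The list of the PERK branch and ATF4 effectors had 5 of 9 higher and none lower, with a median of 1.02. PERK activity was not measured, and what raised these transcripts was not tested. ATF4 had 797 and 796 CPM in RB-1, against 412 and 373 CPM in DMSO (1.02 ± 0.22, adjusted p = 0.00768). DDIT3, the transcription factor CHOP that ATF4 induces, had 51.3 and 25.2 CPM in RB-1, against 10.5 and 8.64 CPM in DMSO (1.99 ± 0.37, adjusted p = 0.00442), and is uncertain because 27.2% of its exon bases overlap the gene annotated as MARS on the opposite strand. TRIB3, a pseudokinase downstream of both, rose by 1.62 ± 0.36 on the log2 scale (adjusted p = 0.00913). EIF2AK3, which encodes PERK and was chosen for mention after its value was seen, had 19.6 and 29.6 CPM in RB-1, against 41.6 and 47.1 CPM in DMSO, and did not pass (-0.85 ± 0.30, adjusted p = 0.0565). EIF2AK3 did pass as lower with DESeq2 (-0.86, adjusted p = 0.0277) and with a crossed pairing chosen after seeing the data (-0.88, adjusted p = 0.0335). It passed in no other alternative that kept all libraries. Its value was -1.18 with RB-1 replicate 2 left out and -0.58 with RB-1 replicate 1 left out. With DMSO replicate 1 or 2 or RB-1 replicate 1 left out, 3 of the 9 rose. ATF4 missed the threshold with DMSO replicate 2 left out (0.97, adjusted p = 0.0572), and TRIB3 with DMSO replicate 2 (1.43, adjusted p = 0.0564) or RB-1 replicate 1 (1.05, adjusted p = 0.0542) left out, while DDIT3 passed in 15 of 15 alternatives, with 1.40 when RB-1 replicate 1 was left out and 1.34 with the length offset. Over all 120 genes 14 rose and 5 fell with DMSO replicate 1 left out, 8 and 5 with DMSO replicate 2 left out, and 13 and 5 with RB-1 replicate 1 left out.

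**Figure D3:**
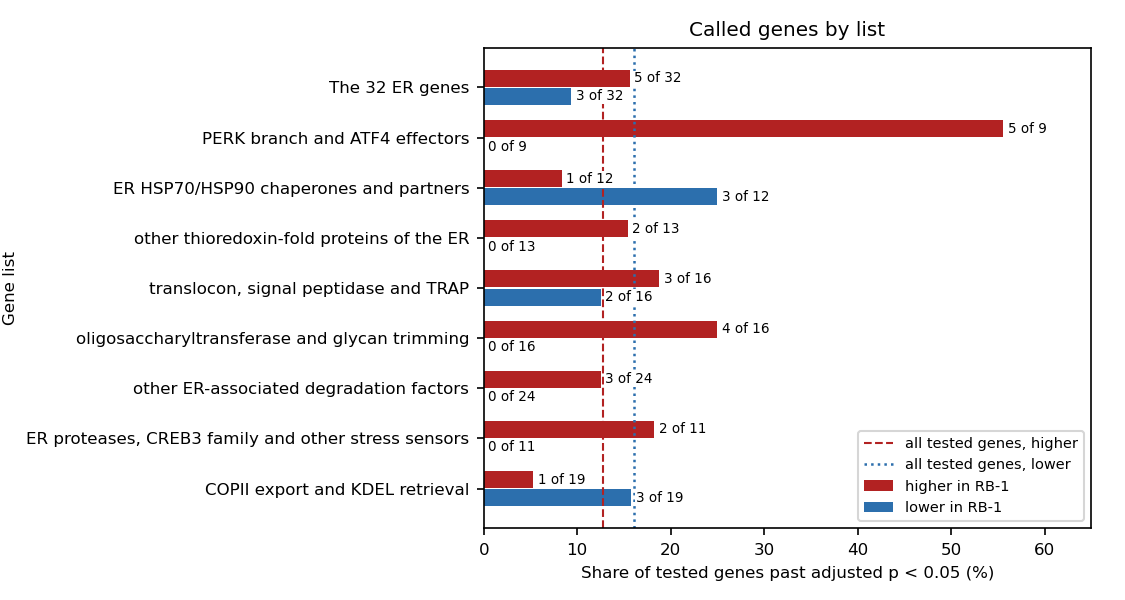
Share of tested genes past an adjusted p under 0.05, higher (red, upper bar) and lower (blue, lower bar) in RB-1, for the 32 ER genes and 8 lists of related genes, with the counts printed beside the bars. Dashed and dotted lines give the 12.8% higher and 16.1% lower among all genes tested. The list of the PERK branch and ATF4 effectors had the largest share higher, 5 of 9.

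The ER-resident HSP70 and HSP90 chaperones and their partners had 1 of 12 higher and 3 lower. These shares, 8.33% and 25%, stood beside 12.8% and 16.1% of all genes tested. HSP90B1, the ER form of HSP90 known as GRP94, had 271 and 362 CPM in RB-1, against 1176 and 951 CPM in DMSO, and fell (-1.75 ± 0.25, adjusted p = 0.00111). SEC63, a J-domain protein of the channel, fell by 1.21 on the log2 scale (adjusted p = 0.00848), and DNAJB9, a J-domain protein induced by ER stress, rose by 1.05 (adjusted p = 0.0191), with adjusted p = 0.134 and 0.127 when DMSO replicate 1 or 2 was left out. HSPA5, the ER HSP70 BiP and a standard marker of the unfolded protein response, was chosen for mention after its value was seen. It had 1131 and 1250 CPM in RB-1, against 1071 and 940 CPM in DMSO, and did not pass (0.24 ± 0.22, adjusted p = 0.428).

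The remaining lists are read beside the 12.8% higher and 16.1% lower among all genes tested. In the translocon, signal peptidase and TRAP list 3 of 16 rose and 2 fell, with SEC61G, the γ subunit of the channel, 3.51-fold higher (1.81 ± 0.33), SPCS3, a signal peptidase subunit, 2.02-fold higher, and SEC62, a channel partner in post-translational import, 2.95-fold lower (-1.56 ± 0.29). In the list of oligosaccharyltransferase and glycan trimming 4 of 16 rose and none fell, with OSTC 2.97-fold higher (1.57 ± 0.27) and TMEM258 3.56-fold higher (1.83 ± 0.40; 13% of its exon bases overlap MYRF on the opposite strand), both subunits of the transferase, and the mannosidase gene MAN1A1 2.35-fold higher (1.23 ± 0.29). Among other ER-associated degradation factors 3 of 24 (12.5%) rose and none fell: RNF5, a membrane ubiquitin ligase, 3.32-fold, SELENOK, a selenoprotein of the ER membrane, 3.28-fold, and FAM8A1, a partner of the SYVN1 complex, 2.92-fold. Other thioredoxin-fold proteins had 2 of 13 higher, PRDX4 and QSOX1, and none lower. The list of ER proteases, the CREB3 family and other sensors had 2 of 11 higher, CREB3 and BAK1, and none lower. COPII export and KDEL retrieval had 1 of 19 higher, MCFD2, and 3 lower, with the coat subunits SEC24B 4.11-fold lower (-2.04 ± 0.31) and SEC31A 3.05-fold lower (-1.61 ± 0.26). With DMSO replicate 1 or 2 or RB-1 replicate 1 left out, the thioredoxin-fold list and the protease list each had 0 higher, so that PRDX4, QSOX1, CREB3 and BAK1 missed the threshold (adjusted p from 0.0530 to 0.198). The length offset gave smaller values for SEC61G (1.01), OSTC (0.98), RNF5 (1.12) and PRDX4 (0.54, adjusted p = 0.116) and a larger one for QSOX1 (1.45, against 0.72 without it). SEC61G had 183 and 93.3 CPM in RB-1 replicates 1 and 2, against 38.1 and 40.6 CPM in DMSO. TMEM258 had 127 and 51.5 CPM in RB-1 replicates 1 and 2, against 24.4 and 25.6 CPM in DMSO, and its log2 fold change was 1.05 (adjusted p = 0.0428) with RB-1 replicate 1 left out. SPCS3, MAN1A1, FAM8A1 and MCFD2 missed the threshold with DMSO replicate 2 left out (adjusted p from 0.0893 to 0.118).

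The members' differences moved with transcript length. Over the 32 members the Spearman correlation of log2 fold change with the length of the longest transcript was -0.293, and over all genes tested -0.380. The log2 ratio of RB-1 replicate 1 to RB-1 replicate 2 had a correlation with length of -0.692 over the members, and that of DMSO replicate 1 to DMSO replicate 2 one of 0.325. These are descriptions across genes that share the same libraries. The 8 members with the shortest transcripts, 587 to 1919 bases, had a median log2 fold change of 0.69, and the 8 with the longest, 4832 to 10650 bases, one of -0.29. Among all genes tested the shortest and longest quartiles had medians of 0.47 and -0.47. The 3 members that fell have transcripts of 4529 bases or more. So do ERO1B (4567 bases), EDEM1 (6146 bases) and ERN1 (7876 bases), which rose against the trend. DERL2 (4209 bases), which also rose, is longer than the median of all genes tested, 3366 bases. Length thus did not divide the members that rose from those that fell.

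**Figure D4:**
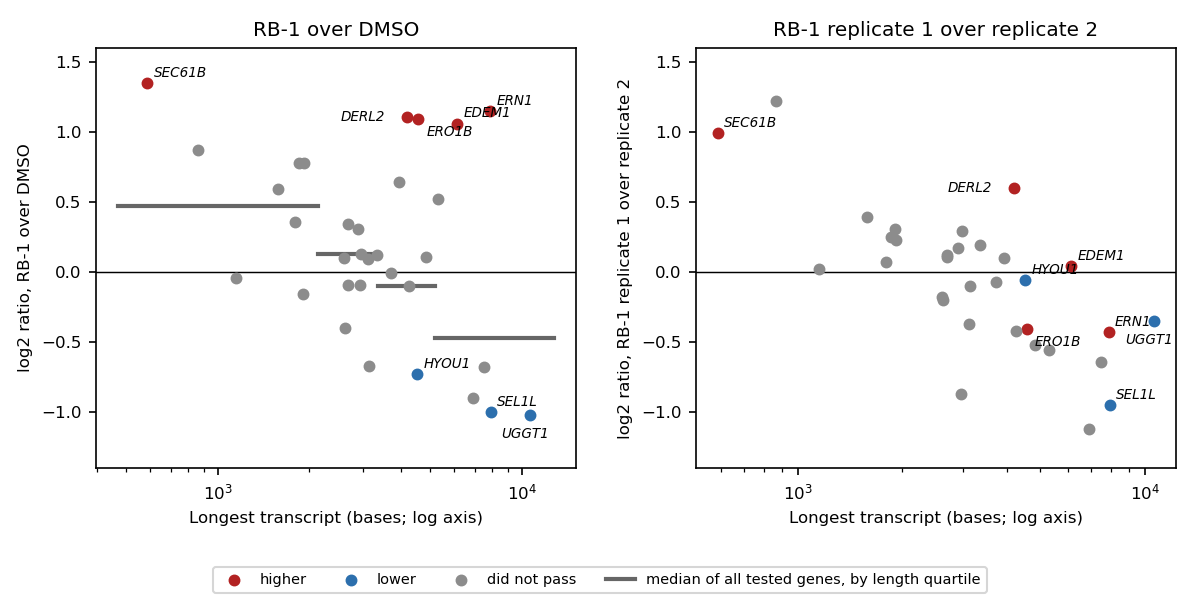
Log2 ratio against longest annotated transcript (bases, log axis) for the 32 ER genes, RB-1 over DMSO at left and RB-1 replicate 1 over replicate 2 at right, coloured by call, with bars at left for the median of all tested genes in each length quartile. SEC61B, with 587 bases, is high in both panels, SEL1L is low in both, and ERN1, EDEM1, ERO1B and DERL2 lie above the bar of their quartile.

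When a smooth trend along length was removed from each library before the test, 6 members were higher and 1 lower. The counts over all genes under this setting are not given here. The median log2 fold change was then 0.06 over the members and 0.03 over all genes. ERN1 (1.71), EDEM1 (1.48), ERO1B and DERL2 still passed, with the size of the first 2 larger than before, and SERP1 (0.75, adjusted p = 0.0263) and ERO1A were then also higher. SEC61B, UGGT1, HYOU1 and SEL1L did not pass, and SYVN1 was the 1 lower (-0.70, adjusted p = 0.0408). The offset also removes any part of the group difference that follows length, and the part of length in these results was otherwise not tested.

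**Figure D5:**
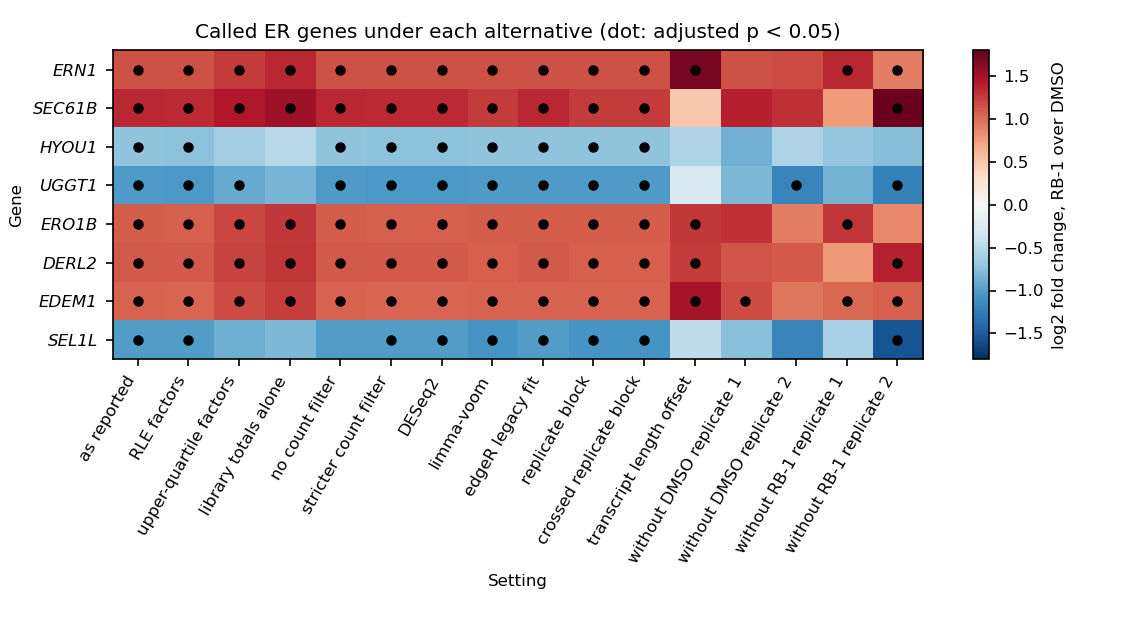
Log2 fold change (colour) of the 8 called ER genes as reported and under each of 15 alternatives, with a dot where the adjusted p was under 0.05. The EDEM1 row lacks 1 dot among the alternatives, the ERN1 row 2, and the HYOU1 and SEL1L rows 7 each.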

How the data were processed

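The deposited file gives raw counts per human Ensembl gene ID, 1 column per library and not normalised, for the 4 libraries. Per the labels' protocols, libraries were made with an mRNA kit. The aligner was not given in the sources used here, nor were the counter and strandedness. Per the submitters' processing notes the builds were mm10 and GRCm38, which are of the mouse, although the IDs are human, so coordinates are printed only for RefSeq promoters (GRCh38.p14). Symbols matched 20148 of 20263 IDs, and lengths are those of the longest GENCODE basic transcript. Replicates were compared by chi-square per degree of freedom (mean count of 10 or more), which was 128 in RB-1 and 256.6 in DMSO. Replicates thus differed by far more than repeat counts of 1 library would. No rule for leaving out a library was set, and all were kept. Genes were kept by filterByExpr and scaled by TMM (factors 0.868 to 1.10) in edgeR 4.0.16 (R 4.3.3), then tested by its quasi-likelihood F test, two-sided, with Benjamini-Hochberg adjustment over 13612 genes (threshold 0.05). Residual degrees of freedom were 2 per gene. Standard errors are the log2 fold change divided by the square root of F. The members and lists were chosen with earlier results of these data known, and no list was tested as a set. Each called member and each sensor is given in every library, other members by role, and from each related list up to 3 called genes of smallest p plus ATF4 and DDIT3. Genes that sit outside this are PRDX4, QSOX1, CREB3, BAK1 and MCFD2, which are all the calls of their list or direction, and those marked. The alternatives comprised upper-quartile and RLE factors, scaling by library totals, no filter, a stricter one of 2 CPM in 2 libraries, DESeq2 1.42.0, limma-voom (limma 3.58.1), the legacy edgeR fit, a replicate block, a length offset and each library left out. Protein sequences were not used here.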

Additional observations from a re-analysis of the deposited data

How the results depend on the processing

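The signs of the 8 called members held in all 15 alternatives, while their calls did not. All 8 had their groups apart and every alternative used the same libraries, so the signs were largely fixed in advance and add no support. Without 1 library in turn, members higher ranged from 0 to 6 and lower from 0 to 4, companion genes higher from 8 to 29 and lower from 5 to 12, and all genes higher from 522 to 1955 and lower from 1065 to 2443. With upper-quartile factors 8 members were higher and 1 lower. Library totals alone gave 8 members higher and 0 lower, 5 companion genes lower and 1400 genes lower in all, against 2189. These scalings moved the median log2 fold change of all genes to 0.12 and 0.21, and the members' to 0.23 and 0.32. With the length offset 1 member was lower, SYVN1, and the 3 that fell in the reported fit did not pass. XBP1 and EDEM2 passed in 5 alternatives each, which for XBP1 include the crossed pairing named below. Same-numbered libraries deviated with a correlation of -0.118 over all genes. The sample labels do not say whether same-numbered libraries were paired, and this value cannot settle it. The replicate block gave 6 members higher and 4 lower, with 1741 and 2314 genes in all. The crossed pairing, chosen after seeing the data, gave 7 members higher and 5 lower, and its counts over all genes are not given here. Its median log2 fold change was 0.12 over the members and 0.01 over all genes. Depth limits DERL3 among the members, with 19 to 32 counts per library.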
